A study of Homo sapiens with 9 samples.

Results

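E-cadherin, EPCAM and 8 further genes that mark or control the epithelial state were followed in HEK293 cells given treatments to raise or lower the histone acetyltransferase MOF (gene symbol KAT8). The 10 genes are CDH1 (E-cadherin), EPCAM, CLDN7, CDH2, KRT8, KRT18, VIM, ESRP1, ZEB1 and SNAI2, out of 19775 genes with a probe set of their own on the array. CDH1 and EPCAM were chosen by their signals in these arrays, which were lower after the knockdown, so their knockdown values are given as a description with no test. The other 8 genes were added as their partners, alternatives and regulators. All 17 probe sets annotated with exactly 1 of these symbols were used. Of these, 11 reached the median signal of the array and were tested, and 6 were dimmer and were only described.

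HEK293 is an established line from human embryonic kidney. The 3 groups compared had 3 arrays each, with cells grown in DMEM with fetal bovine serum. The wild type cells had no treatment. The overexpression cells had been transfected with plasmids encoding hMOF, the human protein. The knockdown cells had been transfected with siRNA against it, although 1 label field of that group calls the expression knocked out. Since wild type cells were not transfected, a difference from them can come from MOF or from the transfection, and these cannot be told apart. The design text also names cells given an EGFP double-stranded RNA as a control, but none of the 9 arrays is labelled so. Whether replicates were separate cultures is not stated in the labels, and the p-values rest only on how far these samples differ, a spread that may be technical.

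MOF acetylates lysine 16 of histone H4, a mark of open chromatin. In an epithelium, E-cadherin joins neighbouring cells at adherens junctions, claudins seal tight junctions, EPCAM is a surface adhesion protein that binds claudin-7, and paired keratins 8 and 18 form the filament network of simple epithelia. During an epithelial to mesenchymal transition these genes go down while N-cadherin and vimentin go up. The repressors ZEB1 and Slug (SNAI2) act there by binding E-box sequences in epithelial promoters, and the splicing factor ESRP1 keeps epithelial transcript forms.

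Promoter sequences were available here for 5 of the 10 genes. The E-box CAGGTG and its reverse complement CACCTG were searched on both strands in the 250 bases before each start site (RefSeq, GRCh38.p14). Of 35116 such windows, 17.5% held at least 1 match and 0.122% held at least 4. CLDN7 and KRT8 were chosen as epithelial genes that had lower signals after the knockdown, although CLDN7 was too dim to test. Any bearing of the matches on these signals was not tested. The 2 windows below show a window with 4 matches (CLDN7) and a window with 0 (KRT8). Both are written 5′ to 3′ along the gene, which is on the minus strand, with the matches in capitals.
CLDN7, chr17:7262479-7262728: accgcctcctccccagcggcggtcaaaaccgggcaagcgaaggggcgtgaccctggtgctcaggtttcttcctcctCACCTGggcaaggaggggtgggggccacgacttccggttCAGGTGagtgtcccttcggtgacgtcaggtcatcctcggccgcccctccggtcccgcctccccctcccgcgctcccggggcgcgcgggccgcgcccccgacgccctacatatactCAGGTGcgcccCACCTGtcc
KRT8, chr12:52926470-52926719: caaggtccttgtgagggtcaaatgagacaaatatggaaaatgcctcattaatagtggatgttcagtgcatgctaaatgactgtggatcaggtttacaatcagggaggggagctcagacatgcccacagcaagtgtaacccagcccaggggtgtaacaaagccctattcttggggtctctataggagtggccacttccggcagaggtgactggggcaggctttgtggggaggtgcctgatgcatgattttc
The CLDN7 window held 4 matches, which began 174, 135, 20 and 9 bases before the start site. The window of the other CLDN7 start site held 0 matches, as did those of KRT8, VIM and both CDH2 start sites. Of the 7 windows of ZEB1, 1 held 1 match and 1 held 2. A match is a run of letters and does not show that a factor bound there.

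Values are the authors' MAS5 signals, a linear brightness in arbitrary units with every array scaled to the same mean. A signal is therefore compared between arrays for 1 probe set, never between genes, and the scaling removes any shift in overall RNA content. Tests are moderated tests of limma on log2(signal + 1), with Benjamini-Hochberg adjustment over 27307 probe sets. The brighter KAT8 probe set (221820_s_at) lay between 432.0 and 705.8 in the knockdown arrays and between 2909.5 and 3797 in the wild type arrays, a log2 fold change of -2.61 (SE 0.17, adjusted p = 4.72e-05). An exact permutation test, two-sided, gave p = 0.1, the lowest that 3 arrays against 3 allow. In the overexpression arrays it lay between 4594 and 4763, above every wild type array (log2 fold change 0.51, SE 0.17, adjusted p = 0.259). A term for replicate 1, whose added poly-A control RNAs were 2.22-fold dimmer than those of the other replicates, made that 0.0478, with 4.06% of probe sets called. The dimmer KAT8 probe set (214885_at) also fell in the knockdown (log2 fold change -1.58, SE 0.26, adjusted p = 0.00296). Its overexpression arrays, from 380.8 to 656.6, overlapped those of wild type, from 400.7 to 498.9 (0.11, SE 0.26, adjusted p = 0.91, 0.854 with the replicate 1 term). Of 6 genes often listed for HEK293, 5 were above the median signal (NEFL, NEFM, INA, NES and PAX2). Of 20 markers of other cell types on the array, 6 were. The summed signal of the fibroblast markers was 3005 to 3284 in wild type, 2697 to 3839 in overexpression and 2141 to 2699 in knockdown arrays, with DCN and LUM below the median, and its part in the results was not tested.

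E-cadherin signal was lower in the knockdown arrays than in any other. The brighter CDH1 probe set (201131_s_at) read 1836, 1721 and 2121 in the wild type arrays, 1258, 1434 and 1612 in the overexpression arrays and 512.7, 555.7 and 556.7 in the knockdown arrays. Means were 1892 ± 206, 1434 ± 177 and 541.7 ± 25.1 (SD, n = 3). No group overlapped another, and the order was wild type, overexpression, knockdown. The knockdown was 3.48-fold below wild type (log2 fold change -1.80, SE 0.14) and 2.63-fold below overexpression (-1.40). Of tested probe sets, 18.3% had all knockdown arrays below all wild type arrays, and 18.7% had them below all overexpression arrays. Overexpression arrays were 0.40 below wild type on the log2 scale, which limma did not call (log2 fold change -0.40, SE 0.14, adjusted p = 0.28, 95% interval -0.71 to -0.09), and 7.67% of tested probe sets had overexpression below wild type without overlap. That comparison shares the wild type arrays with the contrast that chose the gene. The dimmer CDH1 probe set (201130_s_at) did not show this order, since its values of 22.2 to 265.5 in wild type, 146.4 to 214.5 in overexpression and 130.3 to 198.0 in knockdown overlapped throughout. In bulk RNA, fewer cells with a transcript and less of it per cell cannot be told apart.

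EPCAM signal was also lowest in the knockdown arrays. Its probe set (201839_s_at) read 589.9, 927.9 and 747.1 in wild type, 791.4, 1057 and 823.0 in overexpression and 202.7, 183.6 and 284.3 in knockdown arrays. Every knockdown array lay below every other array, as for 18.3% of tested probe sets against wild type and 18.7% against overexpression. Wild type and overexpression overlapped. The knockdown mean of 223.5 ± 53.5 was 3.37-fold below wild type (log2 fold change -1.75, SE 0.23) and 4.01-fold below overexpression. Between overexpression and wild type the difference was 0.25 (SE 0.23, adjusted p = 0.717 by limma, 95% interval -0.26 to 0.76). In the overexpression arrays CDH1 was thus below wild type and EPCAM above it on average, with neither difference called.

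CLDN7, the claudin that EPCAM binds, was below the median signal and was not tested. It read 114.4, 64.4 and 147.9 in wild type, 155.3, 165.6 and 267.7 in overexpression and 31.8, 5.6 and 58.7 in knockdown arrays. The 3 groups did not overlap and followed the order overexpression, wild type, knockdown. Of the dim probe sets of the array, 4.75% had every knockdown array below every wild type array, or 1298 of them. Knockdown was lowest against overexpression in 6.06%, and overexpression was above wild type in 6.71%. Without the filter on low signals, limma gave an adjusted p of 0.146 for knockdown against wild type (log2 fold change -2.15), 0.0429 for knockdown against overexpression (-3.03) and 0.804 for overexpression against wild type (0.88). That fit called 5.87%, 5.47% and 0.196% of all probe sets in the same order. Values this dim carry large relative errors.

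N-cadherin (CDH2), the cadherin of neural and mesenchymal cells, was highest in the knockdown arrays on average. The probe set 203441_s_at read 1536, 1861 and 1399.5 in wild type, 1634, 1458 and 1312 in overexpression and 1865, 2268 and 1944 in knockdown arrays. All 3 knockdown arrays were above all others, as for 16.9% of tested probe sets against wild type and 14.9% against overexpression. Its log2 fold change was 0.35 against wild type (SE 0.14, adjusted p = 0.129) and 0.46 against overexpression (SE 0.14, adjusted p = 0.0518), neither past 0.05, where 6.82% and 5.75% of probe sets were called higher. With the replicate number as a block these became 0.0433 and 0.0113, in fits that called 28.0% and 26.9% of probe sets. With the replicate 1 term they were 0.0708 and 0.021, so the call against wild type was not kept there. The probe set 203440_at read 5221, 6499.9 and 6881 in wild type, 3938, 6340.4 and 5634 in overexpression and 5582, 8002 and 7879 in knockdown arrays, so the groups overlapped. It differed by 0.20 from wild type (adjusted p = 0.527, 0.0758 with the block) and by 0.44 from overexpression (adjusted p = 0.149, 0.00141 with the block). Both probe sets had a positive difference, and their calls depend on the block or the replicate 1 term.

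**Figure D1:**
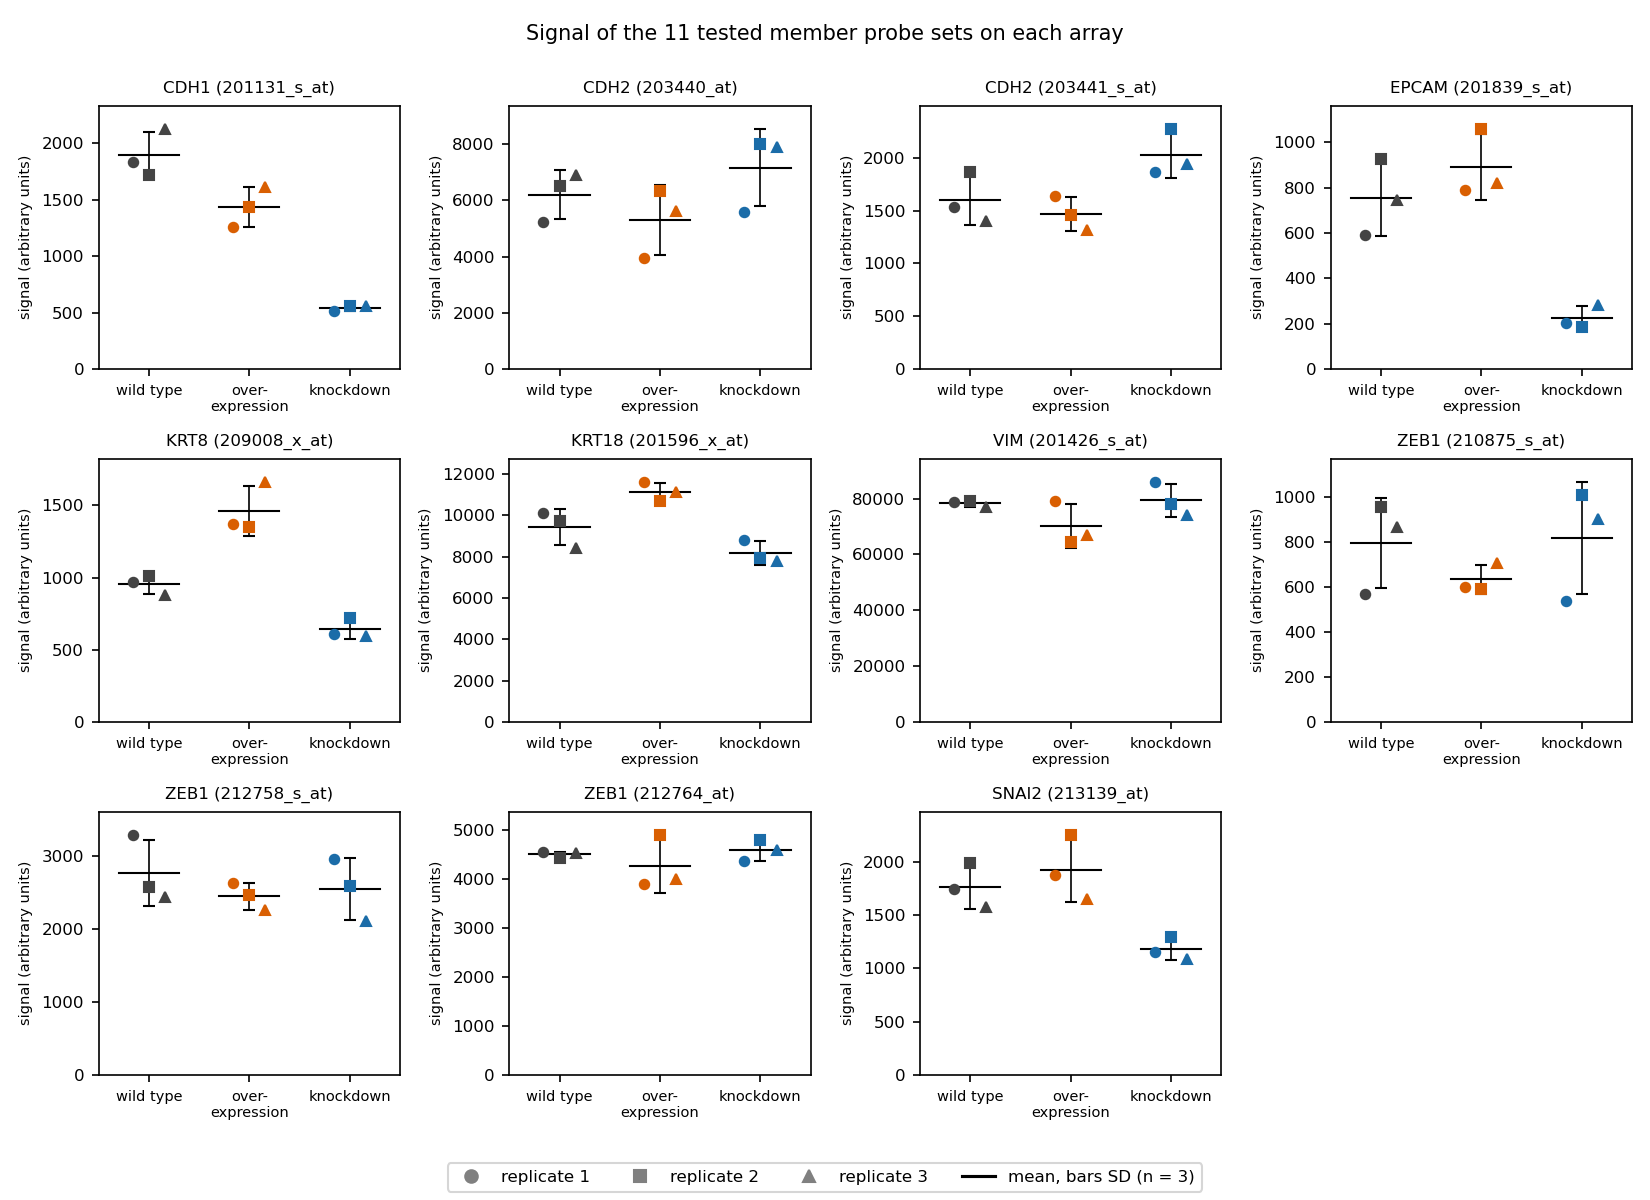
Signal (arbitrary units, linear axis from 0) of the 11 tested probe sets on each of the 9 arrays, with the mean and SD of each group of 3. CDH1, EPCAM, KRT8 and SNAI2 have all 3 knockdown arrays below all others, while the ZEB1 panels and VIM overlap between wild type and knockdown.

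Keratin 8 fell after the knockdown. KRT8 (209008_x_at) read 971.9, 1014 and 878.5 in wild type, 1372, 1352 and 1658 in overexpression and 609.1, 720.5 and 597.5 in knockdown arrays. The groups did not overlap and stood in the order overexpression, wild type, knockdown. The knockdown was 1.49-fold below wild type (log2 fold change -0.57, SE 0.14, adjusted p = 0.0223 by limma), among 15.7% of tested probe sets called in this comparison and 8.89% called lower. The call ended when wild type replicate 1 or 2 or knockdown replicate 1 or 3 was left out (adjusted p between 0.0509 and 0.0838, the highest when wild type replicate 2 was out). Against overexpression the knockdown was 2.27-fold lower (log2 fold change -1.18, SE 0.14, adjusted p = 0.000681), where 14.5% were called and 8.76% lower, and every leave-one-out fit kept that call. Overexpression was 1.53-fold above wild type (log2 fold change 0.61, SE 0.14) with an adjusted p of 0.113, where 0.476% of probe sets were called and 0.319% as higher. That adjusted p became 0.0332 with the replicate 1 term and 0.0417 with the replicate block, in fits that called 4.06% and 3.74%. No overlap with overexpression higher was seen in 9.92%.

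Keratin 18, the filament partner of keratin 8, showed smaller differences. KRT18 (201596_x_at) read 10121, 9741 and 8436 in wild type, 11589.9, 10676 and 11107 in overexpression and 8829, 7922 and 7768 in knockdown arrays. Overexpression arrays were above all others, as for 9.92% of tested probe sets against wild type and 18.7% against knockdown. Wild type overlapped knockdown. The knockdown fell 1.36-fold below overexpression (log2 fold change -0.45, SE 0.09, adjusted p = 0.00912), where 8.76% of probe sets were called lower. Each leave-one-out fit kept that call. Against wild type the difference of -0.20 (SE 0.09) did not pass (adjusted p = 0.157), but it did with the replicate block (0.0383). Overexpression against wild type gave 0.24 (SE 0.09, adjusted p = 0.316). Both keratin probe sets are of a type that can share sequence with other transcripts, and the genes are neighbours on chromosome 12.

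Vimentin, the filament protein of mesenchymal cells, did not differ detectably between knockdown and wild type. Its bright VIM probe set (201426_s_at) read 78767, 79171 and 76836 in wild type, 79149.7, 64307 and 66817 in overexpression and 85791, 78105 and 74153 in knockdown arrays. The groups overlapped, with a log2 fold change of 0.02 for knockdown against wild type (SE 0.08, adjusted p = 0.913) and 0.18 against overexpression (SE 0.08, adjusted p = 0.168). The adjusted p against overexpression was 0.0537 with the replicate block. With the replicate 1 term it was 0.042, in a fit that called 7425 of 27307 probe sets. A second VIM probe set (1555938_x_at), below the median, read 151.2, 172.2 and 170.3 in wild type, 89.6, 179.3 and 190.5 in overexpression and 216.6, 308.6 and 306.7 in knockdown arrays. Here every knockdown array was above every other, as for 7.73% of dim probe sets against wild type. Without the filter its log2 fold change of 0.73 had an adjusted p of 0.349 by limma.

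**Figure D2:**
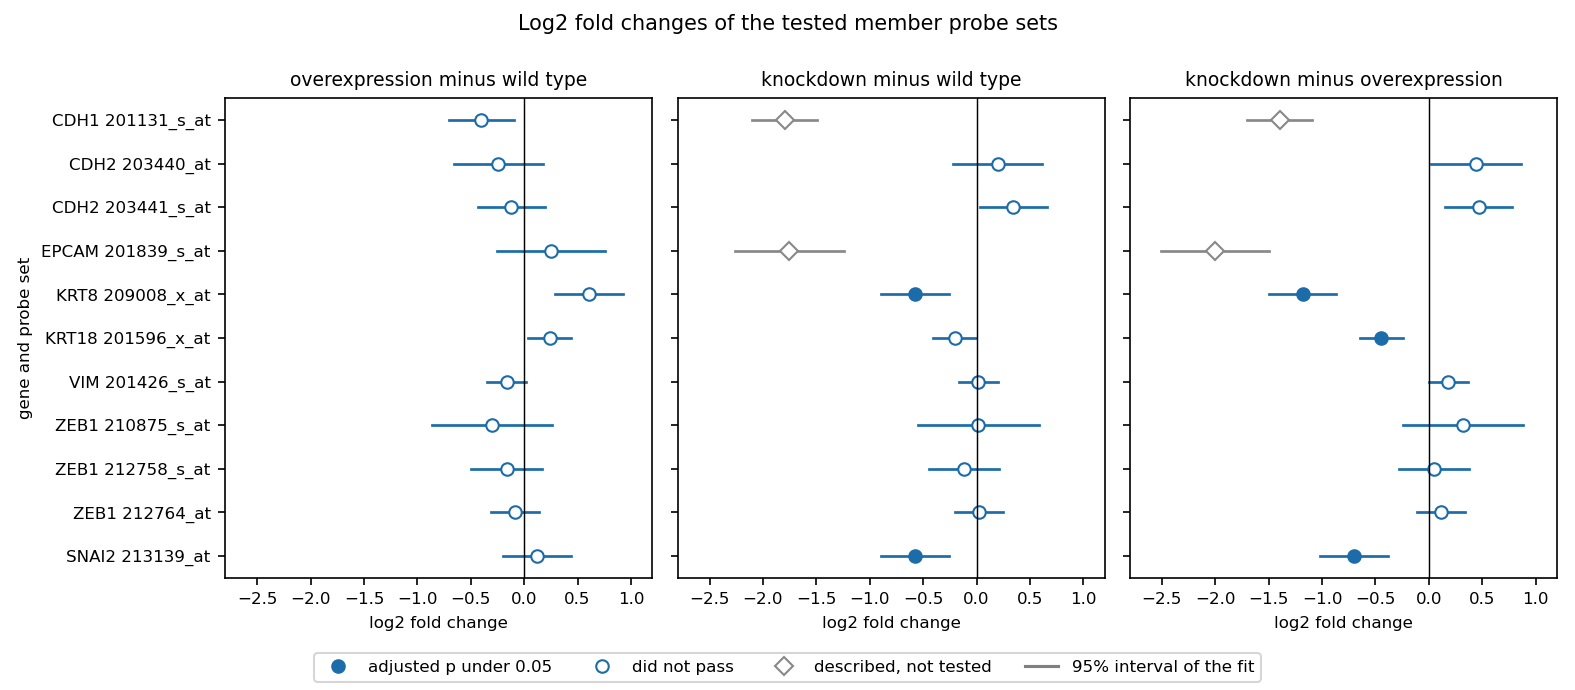
Log2 fold change of each tested probe set with the 95% interval of the fit, in each of the 3 comparisons. Filled circles passed an adjusted p of 0.05 (KRT8 and SNAI2 in both knockdown comparisons and KRT18 against overexpression), and diamonds are the CDH1 and EPCAM values that were described and not tested.

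Of the 2 regulators that could be tested, SNAI2 was called and ZEB1 was not. SNAI2, which encodes the repressor Slug, fell after the knockdown. SNAI2 (213139_at) read 1739.7, 1982 and 1571 in wild type, 1871, 2245 and 1651 in overexpression and 1156, 1289 and 1090.2 in knockdown arrays. All 3 knockdown arrays were below all others, as for 18.3% of tested probe sets against wild type and 18.7% against overexpression. Wild type overlapped overexpression. The knockdown was 1.49-fold below wild type (log2 fold change -0.58, SE 0.15, adjusted p = 0.0221) and 1.62-fold below overexpression (-0.70, SE 0.15, adjusted p = 0.00984). In these comparisons 8.89% and 8.76% of tested probe sets were called lower. The first call ended without wild type replicate 2 (adjusted p = 0.0923), knockdown replicate 1 (0.0538) or knockdown replicate 3 (0.0804), and the other was kept in every leave-one-out fit. Overexpression differed from wild type by 0.12 (adjusted p = 0.798).

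ZEB1, a zinc finger repressor of CDH1, passed in none of the comparisons at any of its 3 tested probe sets. The brightest (212764_at) read 4537, 4432 and 4521 in wild type, 3889.8, 4884 and 3999.9 in overexpression and 4355, 4790.2 and 4589 in knockdown arrays. Its groups overlapped, with a log2 fold change of 0.02 for knockdown against wild type (SE 0.10, adjusted p = 0.899, 95% interval -0.20 to 0.25). The other tested ZEB1 probe sets gave 0.02 (210875_s_at, SE 0.26, adjusted p = 0.973) and -0.12 (212758_s_at, SE 0.15, adjusted p = 0.648). A dim ZEB1 probe set (239952_at) read 109.0 to 124.6 in wild type and 149.7 to 208.3 in knockdown arrays without overlap, while overexpression spread from 22.8 to 182.0. Such a rise over wild type without overlap was seen in 7.73% of dim probe sets.

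ESRP1, the epithelial splicing factor, was dim at both of its probe sets, which disagreed. The probe set 225846_at read 54.6, 16.9 and 37.2 in wild type, 54.0, 22.0 and 13.5 in overexpression and 3.3, 3.6 and 5.2 in knockdown arrays, with every knockdown array lowest. The probe set 219121_s_at read 4.1, 13.6 and 7.5 in wild type, 168.3, 14.5 and 25.1 in overexpression and 18.0, 19.2 and 17.1 in knockdown arrays, with the knockdown above every wild type array. The log2 differences of ESRP1 between knockdown and wild type were thus -2.76 and 1.15, and a direction cannot be given at these signals. Of the dim probe sets, 4.75% had all knockdown arrays below wild type, 6.06% had them below overexpression and 7.73% had them above wild type.

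**Figure D3:**
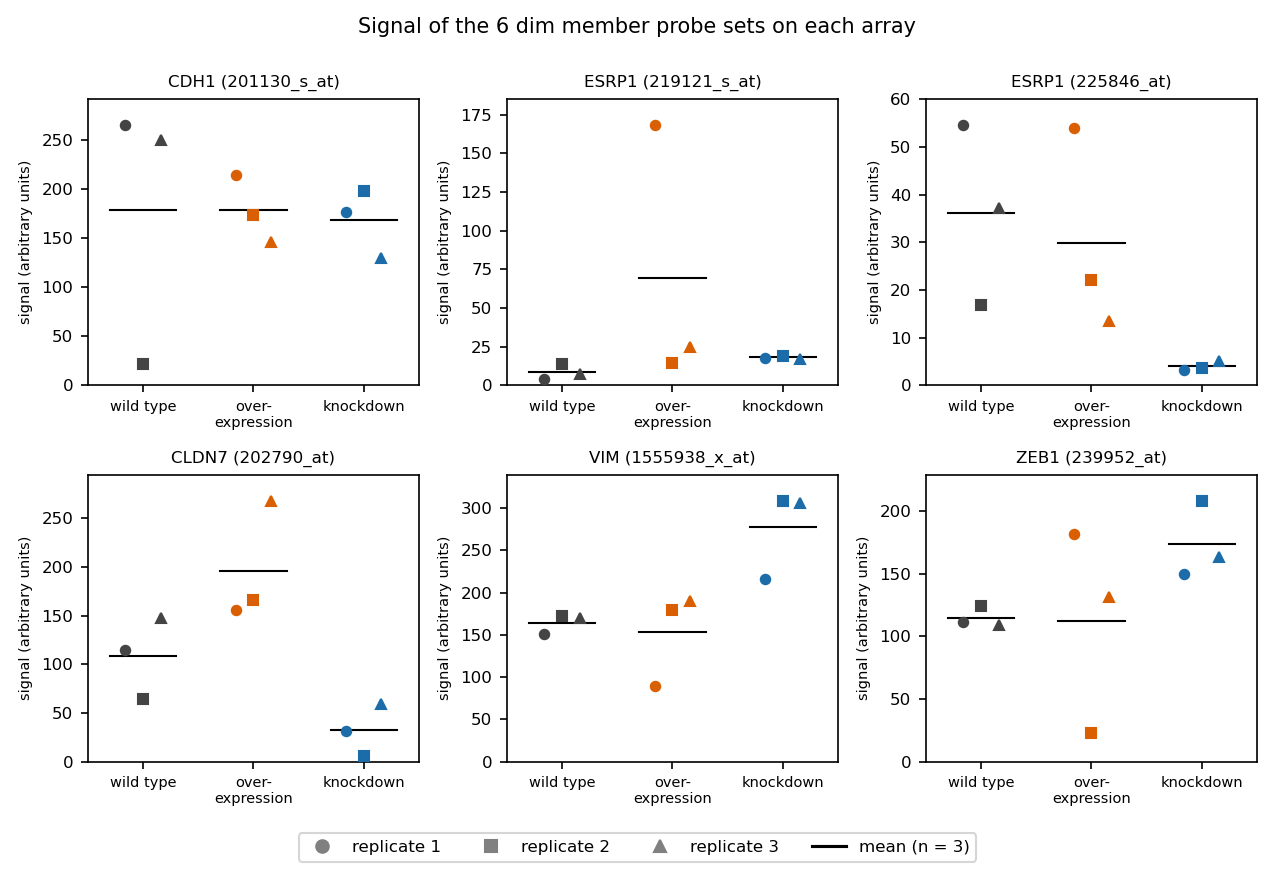
Signal (arbitrary units, linear axis from 0) of the 6 probe sets below the median of the array, with the group mean as a line. CLDN7 and ESRP1 225846_at have all knockdown arrays lowest, VIM 1555938_x_at has them highest, ESRP1 219121_s_at has them above wild type, and the CDH1 panel overlaps throughout.

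Counted with 1 probe set per gene, the brightest tested, 8 of the 10 genes could be tested, and CLDN7 and ESRP1 could not. Apart from CDH1 and EPCAM, 2 of 6 fell against wild type (KRT8 and SNAI2) and 0 rose, where 12.7% of all 12036 genes fell and 6.70% rose. Against overexpression 3 of 6 fell (KRT8, KRT18 and SNAI2), where 12.1% fell and 6.22% rose. The median log2 fold change of those 6 genes was -0.09 against wild type and -0.17 against overexpression, beside -0.04 and -0.05 over all genes. None passed between overexpression and wild type. Both knockdown comparisons share the knockdown arrays, so these counts are not independent.

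The wider junction and epithelial to mesenchymal programme was read from 11 gene lists with 187 genes, of which 102 could be tested. After the knockdown 15 of the 102 passed against wild type, 7 higher and 8 lower, a share of 14.7% beside 19.4% of all genes. Against overexpression 19 passed, 11 higher and 8 lower, a share of 18.6% beside 18.4%. Both shares were near or below that of all genes. With the replicate block 33 genes passed against wild type, 20 higher and 13 lower, and 30 against overexpression, 17 higher and 13 lower. These included every list gene called without it. Overexpression against wild type called 0 of the 102 by limma, with 14 at an unadjusted p under 0.05, and 5 with the block, which called 3.74% of probe sets there.

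No tested gene for a partner of E-cadherin was called lower, and the listed partners CTNND1, CTNNA2 and NECTIN4 were not tested. Of 9 tested genes of adherens junction partners, 1 rose and 0 fell against wild type, with a median log2 fold change of 0.062 beside -0.04 over all genes. AFDN, which encodes the junction scaffold afadin, was the 1 that rose (log2 fold change 0.50, SE 0.08, adjusted p = 0.00234), and it rose by 0.52 against overexpression (adjusted p = 0.00198). Of its 5 other tested probe sets, only 3 had the same sign in each of these comparisons. CTNNB1 and CTNNA1, the beta and alpha catenins, differed from wild type by 0.04 each, and neither passed. With the block VCL (0.19, adjusted p = 0.0306) and JUP (0.37, adjusted p = 0.0335) were also higher than wild type, and NECTIN3 (0.28, adjusted p = 0.03) than overexpression. JUP was above wild type in the overexpression arrays as well (0.53, adjusted p = 0.237, 0.0329 with the block). The 1 other tested NECTIN3 probe set did not share its sign against overexpression. Of the 4 tested other cadherins and the 14 tight junction genes, 0 passed in either knockdown comparison by limma. Against wild type 1 of the cadherins and 3 of the tight junction genes had an unadjusted p under 0.05, and with the block 3 tight junction genes were higher, MARVELD2 (0.32, adjusted p = 0.0158), LSR (0.62, 0.0492) and OCLN (0.17, 0.0474). LSR stood 0.50 above wild type in the overexpression arrays (adjusted p = 0.503). Against overexpression 0 cadherins and 1 tight junction gene had an unadjusted p under 0.05, and MARVELD2 (0.28) was higher with the block (0.0281). The medians of the cadherins and the tight junction genes against wild type were 0.24 and -0.10, with the tight junction genes CLDN1 at -0.41 (adjusted p = 0.344) and TJP1 at 0.00. Among 7 desmosome genes (median 0.13) 1 rose against wild type, DSC2, a desmosomal cadherin (0.43, SE 0.13, adjusted p = 0.0396). Its call ended without wild type replicate 1 or 2 or knockdown replicate 2 or 3 (adjusted p up to 0.131). With the block 2 desmosome genes were higher and 1 lower than wild type, DSC3 (0.42, adjusted p = 0.0277) joining DSC2 and DSG2 standing at -0.41 (adjusted p = 0.00126). Against overexpression DSC2 (0.65), DSC3 (0.61) and PKP2 (0.46) rose, of which only DSC2 was kept in all leave-one-out fits. DSC3 was lost without overexpression replicate 1 or 3 or knockdown replicate 1 or 2 (up to 0.0794), and PKP2 in every such fit except that without knockdown replicate 1 (up to 0.148). The 1 other tested PKP2 probe set did not share its sign.

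Of 5 tested genes of EPCAM's cleavage and signalling, 2 rose against wild type (median 0.045). FHL2, a cofactor that binds the EPCAM tail, rose by 0.63 (SE 0.10, adjusted p = 0.00313), and ADAM17, a protease that cleaves EPCAM, by 0.38 (SE 0.10, adjusted p = 0.0249). FHL2 was also above wild type in the overexpression arrays (0.49, adjusted p = 0.0842, 0.015 with the block). Between knockdown and overexpression FHL2 differed by 0.14 (adjusted p = 0.421). The ADAM17 call remained only in the fit without knockdown replicate 1, with adjusted p up to 0.0973 in the others. ADAM17 also rose by 0.38 against overexpression (adjusted p = 0.0252), a call lost without overexpression replicate 2 or 3 or knockdown replicate 2 or 3 (up to 0.0983). Among 8 other filament genes (median -0.17) KRT10 (-0.66, adjusted p = 0.0429) and SYNM (-0.59, adjusted p = 0.0311) fell against wild type. Each was lost in 4 of 6 leave-one-out fits, KRT10 without wild type replicate 2 or 3 or knockdown replicate 1 or 2 (up to 0.142) and SYNM without wild type replicate 2 or 3 or knockdown replicate 1 or 3 (up to 0.106). The summed signal of the stratified epithelium markers, to which KRT10 belongs, was 7737 to 10589 in wild type, 5879 to 8339 in overexpression and 4199 to 6821 in knockdown arrays, with KRT5, KRT14 and KRT1 below the median, and its part in the results was not tested. INA, a neuronal filament gene, was lower in the knockdown than in the overexpression arrays (log2 fold change -0.93, adjusted p = 0.00204). The overexpression arrays stood above wild type for INA (0.51, adjusted p = 0.176, 0.00697 with the block). With the block INA was also lower than wild type (-0.42, adjusted p = 0.00259) and KRT10 than overexpression (-0.38, adjusted p = 0.00601). Among 12 polarity genes (median 0.13) PARD6G fell against wild type (-0.60, adjusted p = 0.0237). That call ended without wild type replicate 1 or 2 or knockdown replicate 1 or 2 (up to 0.094). PALS1 was higher in the knockdown than in the overexpression arrays (0.50, adjusted p = 0.00613). In the overexpression arrays PALS1 was at -0.35 against wild type (adjusted p = 0.16, 0.0234 with the block). Between knockdown and wild type PALS1 differed by 0.15 (adjusted p = 0.318). With the block 3 polarity genes were higher and 2 lower than wild type, the added ones being LLGL2 (0.55, adjusted p = 0.0267), PRKCI (0.24, 0.0356), PARD6B (0.74, 0.00404) and PATJ (-0.33, 0.0408). The 1 other tested LLGL2 probe set did not share its sign, and only 1 of 2 others of PRKCI did. Against overexpression the block added PARD6B (0.97, adjusted p = 0.000785) and PARD6G (-0.49, 0.0304).

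Of 8 tested regulators of the epithelial state, 3 fell and 1 rose against wild type, and the median was 0.22. The renal factor PAX2 fell from a mean of 414.6 ± 62.5 in wild type to 195.2 ± 13.8 in knockdown arrays (log2 fold change -1.07, SE 0.20, adjusted p = 0.00513). The AP-2 factor TFAP2C (-0.54, adjusted p = 0.00604) and the splicing regulator RBM47 (-0.76, adjusted p = 0.0067) also fell, and TFAP2A, a paralogue of TFAP2C, rose (0.51, adjusted p = 0.00376). Against overexpression, a comparison with the same knockdown arrays, PAX2 was at -1.66, TFAP2C at -0.81, RBM47 at -0.78 and TFAP2A at 0.39, each past the threshold. That TFAP2A call ended without overexpression replicate 3 (adjusted p = 0.0557). GRHL1 did not pass (0.28), and KLF5 (0.47, adjusted p = 0.1) was higher than wild type with the block (0.0116).

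Of 10 tested transcription factors of the mesenchymal transition, 1 rose against wild type (median 0.21). SOX4 went from 17846 ± 500.0 to 24260 ± 693 (log2 fold change 0.44, SE 0.07, adjusted p = 0.00259), and ZEB2 (0.29) and TWIST1 (0.38, adjusted p = 0.138) did not pass, although TWIST1 did with the block (0.00688). The block also added FOXQ1 (0.39, adjusted p = 0.0376) and PRRX1 (-0.57, adjusted p = 0.0392). FOXQ1 was further above wild type in the overexpression arrays (0.67, adjusted p = 0.113, 0.0156 with the block). Against overexpression SOX4 rose by 0.69 and PRRX1 fell (-0.69, adjusted p = 0.0259), the latter call ending without overexpression replicate 1 or 2 or knockdown replicate 2 or 3 (up to 0.0939). With the block TWIST1 (0.32, adjusted p = 0.0163) and ZEB2 (0.47, adjusted p = 0.0401) were higher than overexpression. None of 8 corepressors passed in either knockdown comparison, and 0 had an unadjusted p under 0.05 by limma. Their median against wild type was -0.041, and CTBP1 was called lower with the block, at -0.22 against wild type (adjusted p = 0.0191) and -0.23 against overexpression (0.015).

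The 17 tested mesenchymal matrix and surface genes moved both ways, with a median of 0.029 against wild type and -0.24 against overexpression. LGALS1, which encodes galectin-1, rose from 3295 ± 354 in wild type to 7653 ± 343 in knockdown arrays (log2 fold change 1.22, SE 0.12, adjusted p = 0.000234). The collagen genes COL5A2 (-1.30, adjusted p = 0.0068) and COL3A1 (-1.01, adjusted p = 0.046), the latter among the fibroblast markers above, fell, and COL3A1 kept its call only without knockdown replicate 1 (up to 0.146). Fibronectin (FN1) differed by 0.14 and did not pass. Against overexpression 3 rose and 3 fell, among them LGALS1 at 0.95, ACTA2 (smooth muscle actin) at 0.49, PDGFRA at 1.02 and COL5A2 at -1.24. The other 2 that fell were COL3A1 and SPARC. The block added ACTA2 against wild type (0.26, adjusted p = 0.0356), and ITGB1 (0.19, 0.0491), COL5A1 (-0.44, 0.0383) and COL1A1 (-0.41, 0.0123) against overexpression. PDGFRA was lost without overexpression replicate 1 or 2 or knockdown replicate 2 or 3 (adjusted p up to 0.0842).

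**Figure D4:**
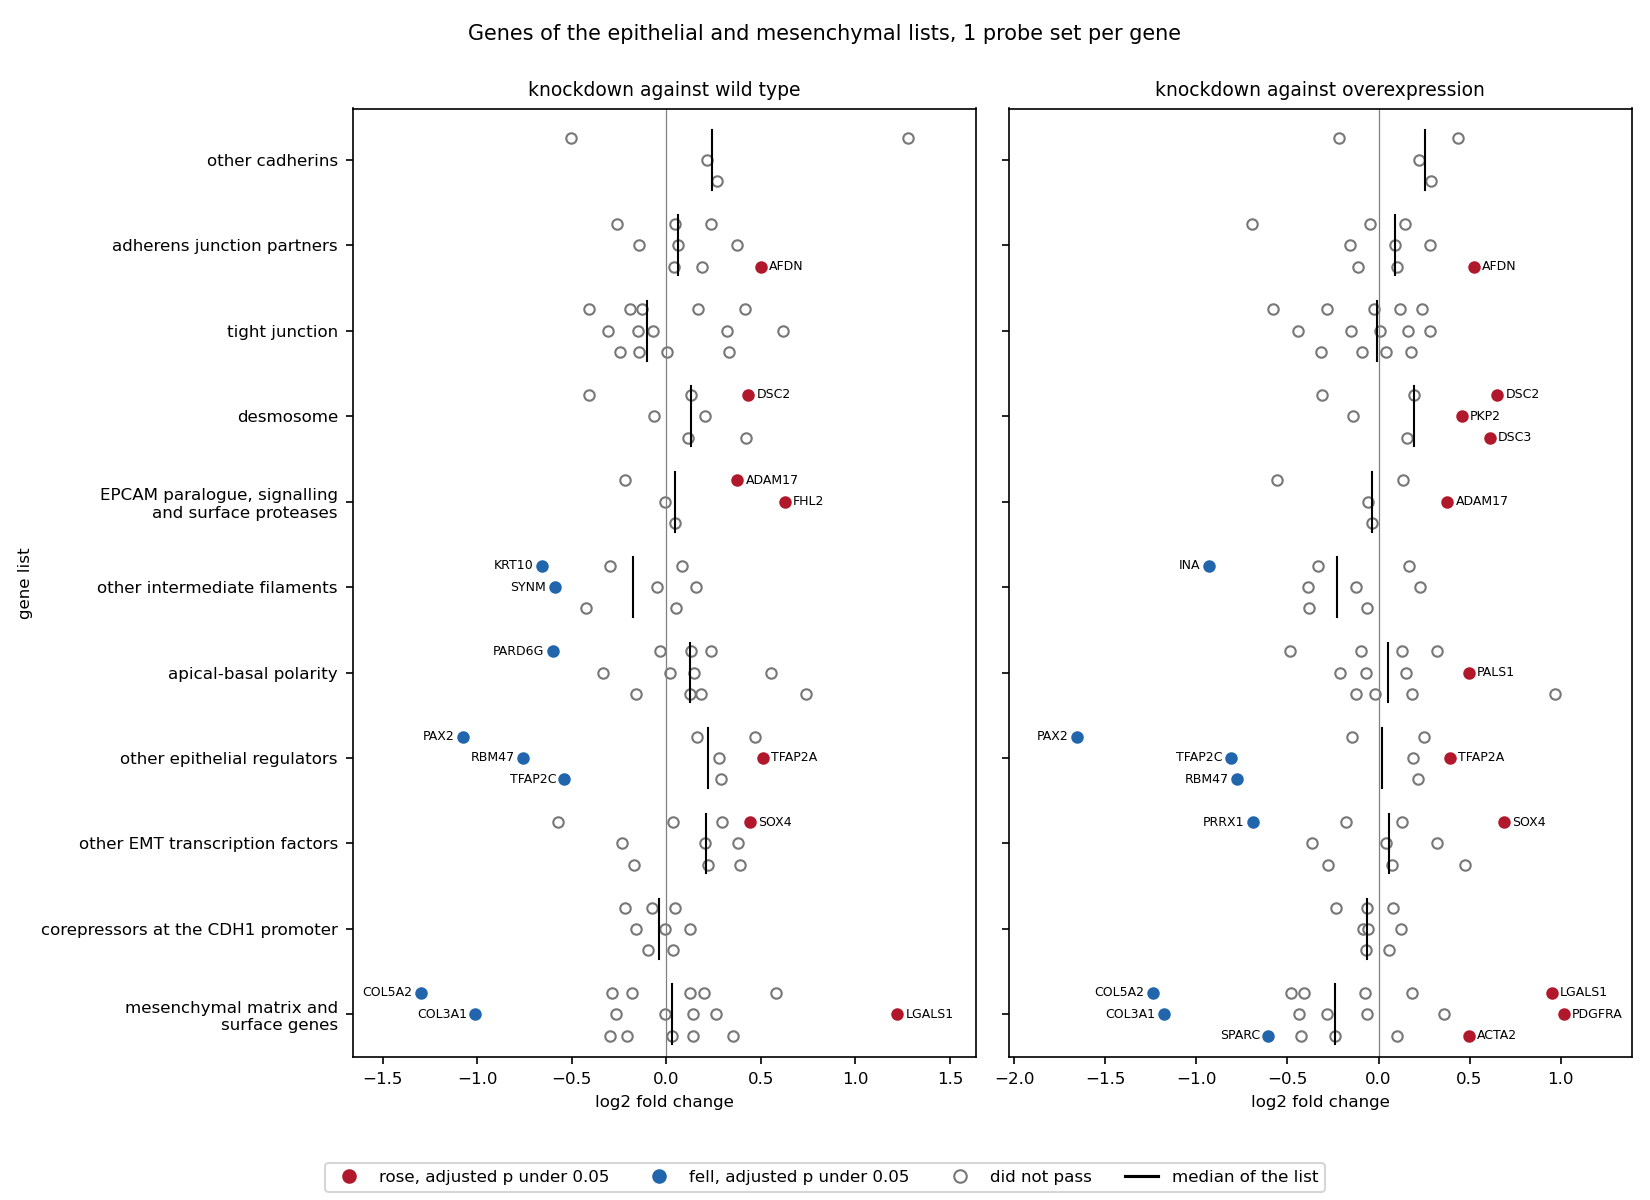
Log2 fold change of the tested genes of each list (1 point per gene, spread vertically for legibility) for knockdown against wild type and against overexpression, with a vertical bar at the list median. Named points passed an adjusted p of 0.05, and points to both sides of 0 are named for regulators and mesenchymal genes.

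Over the 9 arrays the log2 signals of CDH1 and EPCAM had a Pearson correlation of 0.90, given as a description since both were chosen for the same difference and the arrays share 3 groups. With CDH1 and EPCAM in turn, SNAI2 correlated at 0.80 and 0.90, KRT8 at 0.71 and 0.83 and KRT18 at 0.59 and 0.74. CDH2 (-0.34 and -0.40), VIM (-0.33 and -0.52) and ZEB1 (-0.20 and -0.26) ran weakly the other way. Among 12035 other genes, those most like CDH1 over the 9 arrays were DYNC2LI1 (0.997), LYRM1 (0.990), FBXW2 (0.990), RPL22L1 (0.988) and BAIAP2-DT (0.986). Those most like EPCAM were GHITM (0.988), GTF2A2 (0.982), MMGT1 (0.981), CNIH4 (0.981) and MED18 (0.979). None of these 10 is on the epithelial or mesenchymal lists.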

How the data were processed

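Total RNA of 9 HEK293 samples was measured on 9 oligonucleotide arrays. The deposited values are linear intensity signals, 1 per probe set, which the authors computed by MAS5 according to the notes GEO lists (per the submitters' processing notes), with version and settings not given in the sources used here. Each array had a 2% trimmed mean of 1500.2 in the deposited table. Symbols came from the platform annotation, where 41097 of 54675 probe sets have 1 symbol, 1801 several and 11777 none. Of these, 41043 matched RefSeq (GRCh38.p14) by gene ID, and 0 symbols changed.

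Signals were taken to log2(signal + 1). The 62 control probe sets were dropped, and the 27307 with a mean log2 signal of at least the median (7.56, a signal of about 188) were tested with limma 3.58.1 in R 4.3.3 (lmFit, eBayes with a variance trend, all 9 arrays, no block, 6 residual degrees of freedom). A call is an adjusted p under 0.05. The number of arrays limits the precision. Alternatives were the pseudocount, the filter, quantile normalization, no variance trend, the replicate block, a term for replicate 1, replicates 2 and 3 alone, another probe set and leaving out each replicate.

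Same-numbered arrays deviated together in the knockdown comparisons (correlations of deviations 0.14 to 0.36 with wild type and 0.11 to 0.35 with overexpression), so the block is given there where it changes a call. Pairs of a replicate 1 array with a replicate 2 or 3 array were negative (-0.28 to -0.13). Knockdown replicate 2 also correlated at 0.18 with wild type replicate 3 and at 0.089 with overexpression replicate 3. The pairing of replicates 2 and 3 by number is therefore uncertain. The members and gene lists were chosen with earlier results of these data known. Genes named are KAT8, all members, up to 4 called genes per list and comparison with the smallest p, and the 5 most correlated with CDH1 and with EPCAM; other genes named, such as the catenins and genes called only with the block, were chosen after their values were seen. Figures were drawn with matplotlib 3.10.9 in Python 3.11.15.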

Additional observations from a re-analysis of the deposited data

How the results depend on the processing

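For overexpression against wild type 130 probe sets passed. This became 1022 with the replicate block, 1109 with a term for replicate 1, 220 in replicates 2 and 3 alone, 70 without the variance trend, and 25 to 97 when 1 replicate was left out. For knockdown against wild type the count was 4289, which became 7637 with the block, 7706 with the replicate 1 term and 2213 to 3653 in leave-one-out fits. For knockdown against overexpression it was 3963, then 7334, 7425 and 2040 to 3289. The cause was not tested, except that leave-one-out fits have fewer arrays. In overexpression against wild type 1 pair of same-numbered arrays had a correlation of deviations of 0.083, so the numbers did not pair those samples by the rule used. The margin was narrow, since the lowest such pair in the knockdown comparisons was at 0.11. In the knockdown comparisons the replicate block changed no call of the 10 genes or the list genes beyond those given with their results.

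Among single probe sets, 835 values kept their direction and side of the threshold, 68 lost a call, 18 gained one, 16 changed sign and 1 moved. The sign changes were of small or dim values. CDH1 at its dim probe set gave 0.61 for overexpression and 0.53 for knockdown against wild type. There 1 wild type array read 22.2, beside 265.5 and 249.8 in the others. The median was higher in wild type (249.8) than in overexpression (174.2) or knockdown (177.1). The dimmer KAT8 probe set gave -0.15 for overexpression in replicates 2 and 3 alone and -0.13 to 0.27 in leave-one-out fits. VIM for knockdown against wild type gave -0.035 in replicates 2 and 3 alone and -0.040 to 0.065 in leave-one-out fits. ZEB1 for knockdown against wild type ran in leave-one-out fits from -0.21 to 0.29 (210875_s_at), -0.23 to 0.014 (212758_s_at) and -0.0085 to 0.060 (212764_at), and was -0.12 when 212758_s_at stood for the gene. ZEB1 212758_s_at for knockdown against overexpression was -0.012 in replicates 2 and 3 alone and -0.065 to 0.18 in leave-one-out fits. Signals near background limit CLDN7, ESRP1 and the dim probe sets of CDH1, VIM and ZEB1.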
